A study of Mus musculus with 4 samples.

Results

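The untreated control culture of RAW264 mouse macrophages is described here gene by gene from its single expression array, 1 of the 4 arrays of the series. It was chosen by its title, siGFP untreated: the cells had received small interfering RNA (siRNA) against green fluorescent protein, a transcript that mouse cells do not carry, and no ferric chloride. The other 3 cultures received the same siRNA with 500 µM ferric chloride for 24 hours (siGFP iron), siRNA against Tfe3 and Tfeb without iron (siTfe3/Tfeb untreated), or both (siTfe3/Tfeb iron). All 4 had been transfected, so none is an untransfected baseline, and treatment started 48 hours after transfection. RAW264 is a transformed line from a BALB/c mouse, and it stands in for, but is not, a tissue macrophage. Each group held 1 array, so no value below has a replicate check and no test or p-value was computed.

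Macrophages are phagocytes of the innate immune system. The receptor for colony-stimulating factor 1 and the transcription factor PU.1 (gene Spi1) establish their identity, Toll-like and other receptors let them sense microbes, and a large lysosomal compartment digests what they take up. They also recycle iron from engulfed red cells through haem oxygenase, ferritin and the exporter ferroportin. Tissue macrophages add programs of their own, for example Gata6 in the peritoneal cavity, Spic in the splenic red pulp and Sall1 in microglia.

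The array carried 56605 probes after control spots were set aside, under 36870 gene names. A level is the log2 of the processed signal minus the array's 75th percentile (a signal of 619.4), so that 0 is the signal of a probe brighter than most, and each gene is represented by its brightest probe. A gene was called detected when that probe was flagged as well above background. By this rule 19907 gene names were detected, 54.0% of all, and 13294 of 20352 RefSeq protein-coding genes, 65.3%. On the other arrays the share of gene names was 53.7%, 55.1% and 52.4%. Counts of listed genes below are to be read against the 54.0% and 65.3%, also where these are not repeated. Levels order probe signals, which depend on each probe as well as on its transcript: they are neither transcript numbers nor corrected for length.

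Probe sequence bears on the order of the brightest genes and is shown first. In all, 438 probes (0.774%) held a word of 16 bases that recurred in probes of at least 5 gene names on at least 3 chromosomes. Of these probes 92.5% were detected, against 53.1% of the others, and their median level was 4.23 against -4.32. The stretches below are 30 bases of the brightest probes of 6 genes, as the array files give them, with the shared word in capitals. Elk1 and Med16 encode a transcription factor and a Mediator subunit, Furin a protease, and Pirb an inhibitory receptor of myeloid cells.
Glrx2: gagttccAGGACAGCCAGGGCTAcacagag
Elk1: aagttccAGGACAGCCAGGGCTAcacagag
Med16: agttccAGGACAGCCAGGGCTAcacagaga
Furin: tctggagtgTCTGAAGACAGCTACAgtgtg
Pbld1: tggagtgTCTGAAGACAGCTACAgtgtaat
Pirb: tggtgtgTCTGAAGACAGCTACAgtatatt

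The first 3 probes map to different chromosomes in the array files' mm9 coordinates, at chr1:145596708-145596767 for Glrx2, chrX:20510521-20510580 for Elk1 and chr10:79357669-79357728 for Med16. Their levels lay between 8.62 and 9.06. The next probe of Glrx2 lay at 3.59, that of Elk1 at -1.86 and that of Med16 at -2.56. The Furin, Pbld1 and Pirb probes lay at 8.68, 8.67 and 8.54, with next probes at 2.26, -3.01 and 1.97. These 6 ranked between 7 and 73 of all gene names, and each probe was the brightest of its gene. Their similar high levels and dimmer next probes therefore follow in part from how they were picked. Among 161 genes with several probes whose brightest held a shared word, the median gap to the next probe was 6.07, and for 50 no other probe was detected. For other detected genes the median gap was 2.52. Such genes are named below as having a shared-word probe. Whether a probe lies in coding sequence or a UTR was not analysed here.

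**Figure D1:**
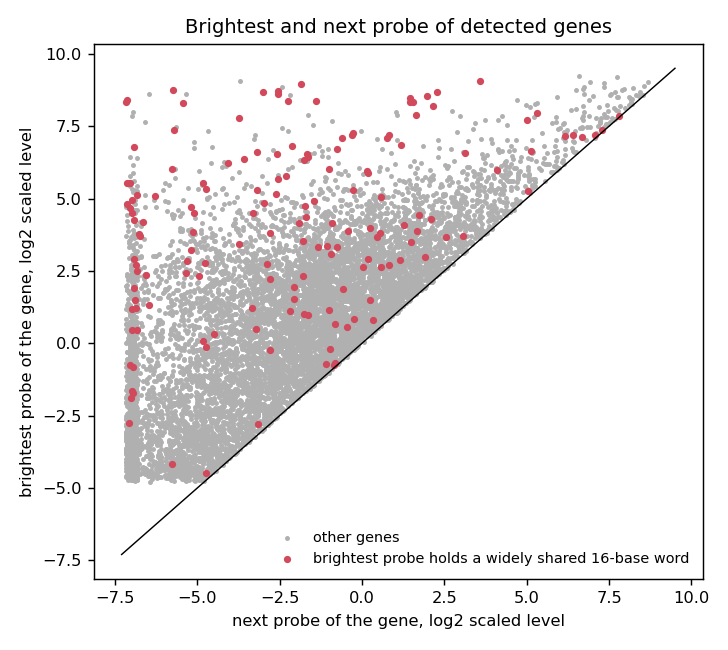
Level of the brightest probe (vertical axis) against that of the next probe (horizontal axis), both log2 of the processed signal minus the array's 75th percentile, for detected genes with several probes. Each point is a gene, red where the brightest probe holds a widely shared 16-base word, and the line marks equal levels. Red points reach a level of 9.06 with next probes spread from the floor of the array upwards.

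Even without shared words, probes of a gene often differed. Of 9145 detected genes with several probes, 5163 were detected by every probe and 3982 were not. The brightest probe exceeded the next by a median of 2.55, and by more than 3 in 3797 genes (41.5%). The brightest probe is above the next by construction, so the size of the gap shows only how far a gene's level rests on 1 probe. For many of the genes named below whose probes differed widely, the next probe is given.

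Levels ran from -7.18 to 9.80. Detected genes had a median of -0.06 and undetected ones of -6.88, with the median of all at -4.18. The limit of detection was not a single level: the dimmest detected gene lay at -4.84 and the brightest undetected one at -4.52, with 1023 genes between these values, 464 of them detected. A gene near -4.7 can therefore be called either way. Levels above 0 were reached by 9824 genes, above 4 by 2381 and above 8 by 168. The 100 brightest genes held 17.9% of the summed signal and the 1000 brightest 66.8%, while all undetected genes together held 0.0975%. None of 308 negative control spots was flagged as well above background.

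**Figure D2:**
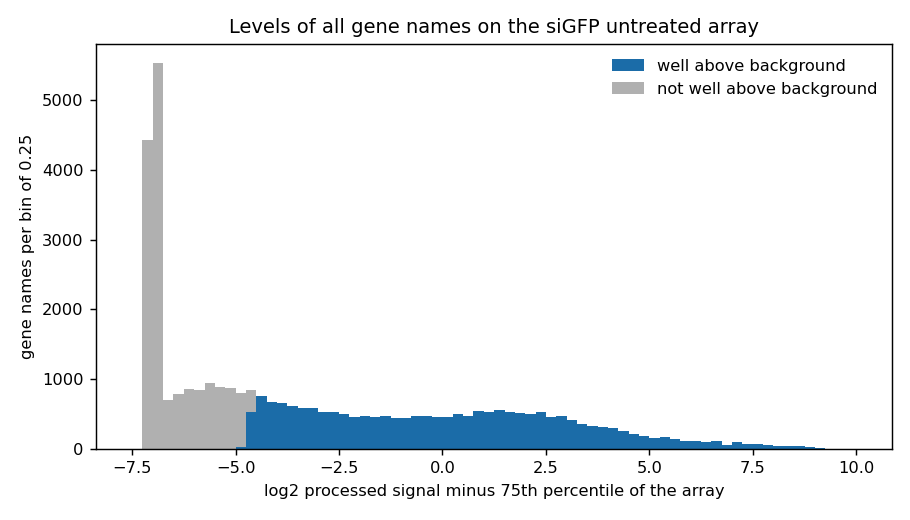
Number of gene names per bin of 0.25 (vertical axis) by level (horizontal axis, log2 of the processed signal minus the array's 75th percentile) on the siGFP untreated array. Blue marks genes well above background and grey the rest, which pile up near the median of undetected genes, -6.88.

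Spots of 1 probe give the error within the array. Over 300 probes printed several times, the median SD between spots was 0.039. It was 0.037 for 269 probes above a level of 2 and 0.28 for 28 probes below -2, and only 3 such probes lay between. This spread leaves out the culture, the RNA preparation and the labelling. Neighbours in the order of bright genes that lie within a few hundredths of a unit are therefore not separated.

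Genes of different classes reached the different heights of the ranking. With the ranking cut into 10 equal parts, the brightest gene with a symbol in the top 5 parts was, from the top down, Lyz2 at 9.24, Banf1 at 3.06, Wls at 1.22, Rbsn at -0.67 and Kcnip1 at -2.65. In the last 4 parts it was Htra1 at -5.31, Olfr1029 at -6.37, Olfr961 at -6.91 and Prl2a1 at -7.02, none of them detected. The second set are a secreted protease, olfactory receptors and a placental prolactin-family hormone. Of 3954 long non-coding RNAs named through RefSeq, 29.2% were detected, as were 43.0% of the 12105 names with no RefSeq match.

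The brightest probe of all named Rn18s, the 18S ribosomal RNA, at 9.80. Lyz2, the lysozyme of macrophages, ranked 2 of 36870 at 9.24, and lay at 9.19, 9.03 and 9.06 on the siGFP iron, siTfe3/Tfeb untreated and siTfe3/Tfeb iron arrays. Its probe lies at chr10:116714450-116714509 (mm9). Ppia, the prolyl isomerase cyclophilin A, followed at 9.20. S100a4, a calcium-binding protein, lay at 9.14. The gaps between these 3 were of the order of the spread between spots.

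Among the 25 brightest genes with a symbol, 11 encode or are named as ribosomal proteins. They include Rps27a at 9.06 (next probe -3.72), Rps18 at 9.04, Fau, a fusion of a ubiquitin-like and a ribosomal protein, at 9.03, Rps20 at 8.89 and Rpl37a at 8.89. Of the rest, Grn, the lysosomal growth factor precursor progranulin, lay at 9.0, the glycolytic enzymes Pgk1 and Aldoa at 8.99 and 8.84, and the cytoskeletal actin Actb at 8.96. Rack1, a scaffold on the ribosome, lay at 8.86. Spp1, the secreted matrix protein osteopontin, lay at 8.78, and at 9.19, 8.11 and 9.07 on the other arrays. Macrophage products, translation and energy metabolism thus shared the top of this array.

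Several names in that group rest on probe sequence. Glrx2, Elk1 and Kctd14 (8.93, its only probe) have shared-word probes. The brightest probe of Cnbd2, at 8.87, shares a run of 56 bases with the probe of Rpl37a, and the next of its 5 probes lay at -2.44. The only probe of Exosc2, at 8.88, shares 39 bases with a probe of Milr1 at 8.62. On these 5 probes the gene's own transcript and others cannot be told apart.

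Of the 100 brightest gene names, 27 were cytosolic ribosomal proteins, 5 glycolytic isozymes and 5 histones, 23 had no RefSeq match, and 20 had shared-word probes, histones among them. Of those 100, 93 were also among the 100 brightest with iron, 89 with siTfe3/Tfeb, 89 with both, and 82 on all 3 other arrays. The head of the ranking was therefore largely shared by the 4 cultures.

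The label macrophage was checked against 32 identity genes. All but Cd163 were detected, 31 of 32, with a median level of 3.56 against -4.18 for all gene names. The brightest after Lyz2 were Csf1r, the receptor for colony-stimulating factor 1, at 7.85 (next probe 2.96), Lgals3, the lectin galectin-3, at 7.38, and Fcer1g, the signalling chain shared by Fc receptors, at 7.08. Ctss, an endosomal protease, lay at 7.02, the lipopolysaccharide co-receptor Cd14 at 6.50, the adaptor Tyrobp at 6.35 and the lysosomal glycoprotein Cd68 at 6.08. These genes cover the receptor, adaptor and lysosomal sides of the cell type.

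Csf1r lay at 7.85 here and at 7.54, 7.66 and 7.36 on the other arrays, in the order siGFP iron, siTfe3/Tfeb untreated and siTfe3/Tfeb iron. Adgre1, the F4/80 antigen by which mouse macrophages are usually sorted, lay at 3.46 here (next probe -2.52) and between 3.43 and 3.73 elsewhere. Spi1 lay at 0.70 here and between 0.31 and 0.43 elsewhere. All 3 were detected on every array.

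The dim end of the identity list held surface receptors. Ccr2, the monocyte chemokine receptor, lay at -3.27, the mannose receptor Mrc1 at -3.75, the scavenger receptor Marco at -3.83 and the apoptotic-cell receptor Mertk at -4.29. Cd163, the haemoglobin-haptoglobin receptor, was undetected by both probes, at -6.98 and between -7.14 and -6.93 on the other arrays. Itgam, the CD11b integrin chain, was bright through a shared-word probe at 4.36, and its next probe lay at -1.70.

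Myeloid transcription factors were nearly all detected, 24 of 25, with a median of 1.71. Rela, a subunit of NF-kB, lay at 4.19 (next probe -2.24), Cebpd at 4.0 and Cebpb at 3.73, both C/EBP factors of myeloid cells, Nfkb1 at 3.70 and Irf8 at 3.19. Maf lay at -4.11 (next probe -6.84), and Batf3, a factor of cross-presenting dendritic cells, was undetected at -5.86. Factors of other lineages were detected in 12 of 24, and 5 by every probe, with a median of -4.76. The share was 54.0% over all gene names and 65.3% over protein-coding genes. The highest of them were Gfi1 at 0.87 (next probe -4.93), Tcf3 at 0.77, Tal1 at -0.09 and Nanog at -0.63 (next probe -5.21). Also detected were Pou5f1 at -1.31, Gata3 at -1.38 and, near the limit, Klf1 of red cells at -4.53. The neural and muscle factors Sox2, Neurod1 and Myod1, with Gata1 and Gata2 of red cells and mast cells, were undetected.

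Of 37 genes of tissue macrophage programs 19 were detected (51.4%, against 54.0% of all gene names and 65.3% of protein-coding genes). By every probe 9 of the 37 were detected. Detected were 4 of 8 Kupffer cell genes, 2 of 7 peritoneal, 6 of 9 microglia, 4 of 8 alveolar and 3 of 5 red pulp genes. Requiring every probe gave 0 peritoneal, 2 microglia, 2 alveolar and 1 red pulp genes. The defining factors Gata6 at -6.88, Spic at -4.75 and Sall1 at -7.09 were undetected, as were Timd4 and Clec4f of Kupffer cells and Tmem119 of microglia. Pparg, the factor of alveolar macrophages, lay at -3.14 by 1 of its 2 probes (next probe -6.99). Siglech, a lectin of microglia and plasmacytoid dendritic cells, lay at 6.75, but only 1 of its 3 probes was detected, and that probe shares 16-base words with probes of 11 other gene names.

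Osteoclasts arise from the same precursors, and RAW264 cells can be driven into them. Of 12 osteoclast genes 11 were detected, each by every probe, with a median of -0.29. Carbonic anhydrase 2 (Car2) lay at 7.08 here and at 6.83, 6.44 and 6.28 on the other arrays. Dcstamp, needed for cell fusion, lay at 2.21, Tnfrsf11a, the receptor RANK, at 1.72, and the protease Ctsk at -0.41. Only Calcr, the calcitonin receptor, was undetected, at -4.81, a level at which other genes were called detected.

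Markers of other cell types were partly detected. Detected were 1 of 7 NK cell markers, 1 of 7 hepatocyte, 2 of 9 fibroblast, 2 of 8 endothelial, 4 of 8 epithelial, 3 of 8 neuron, 6 of 8 muscle, 3 of 7 erythroid and 2 of 6 megakaryocyte markers. Among leukocytes the counts were 6 of 12 neutrophil markers, 3 of 8 mast cell and basophil, 3 of 8 dendritic cell, 7 of 11 B cell and 9 of 12 T cell markers. The share was 54.0% over all gene names and 65.3% over protein-coding genes, and several of these lists lay near or above the first. T cell and muscle markers, at 75% each, lay above both, and B cell markers, at 63.6%, near the second. When every probe was required, 3 T cell, 4 B cell and 3 muscle markers counted as detected, 0 dendritic cell or erythroid ones, and 1 each of the fibroblast, endothelial and neuron lists. All these medians lay at or below -1.46, that of the T cell list, against -4.18 for all gene names and -1.74 for protein-coding genes. The part of these markers in other results was not tested.

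A few of these markers were bright. Blnk, an adaptor best known from B cells, lay at 4.44 here and between 3.77 and 4.37 elsewhere, while Rag1 and Rag2 of developing lymphocytes were undetected. Tnni2, a fast skeletal muscle troponin, lay at 4.18 by its only probe, while Myog and Ckm were undetected. Among T cell markers Cd247 lay at 2.38 (next probe -4.25), Cd5 at 2.30, Cd4 at 1.05 (next probe -4.27) and Cd3e at 0.59, and Cd2 and Cd3g were undetected. Snap25, a synaptic protein, lay at 2.97, through 1 of 3 probes, which shares 16-base words with probes of 41 other gene names. Hdc, which makes histamine, lay at 2.14, while Kit and Cpa3 of mast cells were undetected.

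**Figure D3:**
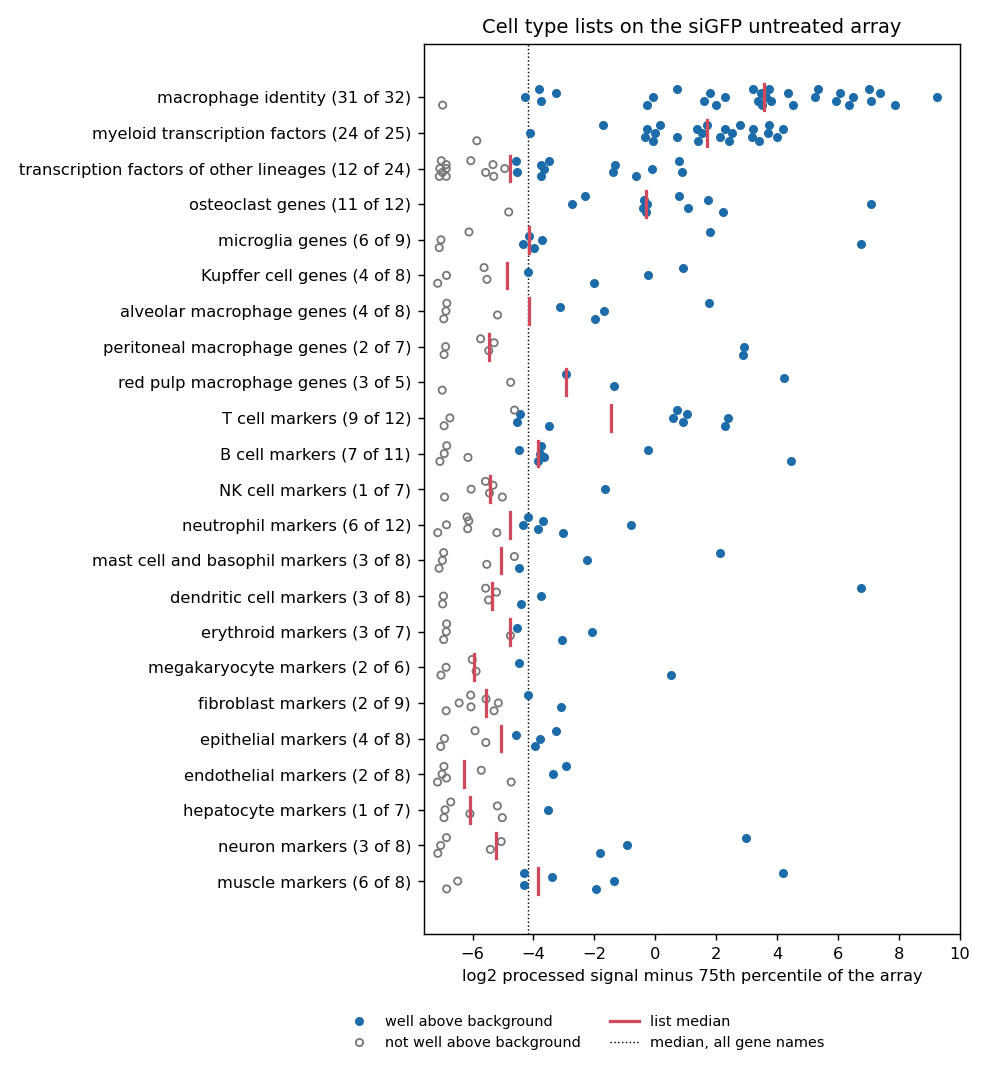
Levels of the genes of 23 cell type lists (horizontal axis, log2 of the processed signal minus the array's 75th percentile), 1 row per list with its detected and measured members in brackets. Filled points were well above background and open points not, red bars are list medians and the dotted line is the median of all gene names, -4.18. The macrophage identity list has the highest median, 3.56, and 31 of 32 members detected.

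The sensing apparatus was broadly present. Of 25 Toll-like receptors and adaptors 22 were detected (88%, against 54.0% of all gene names and 65.3% of protein-coding genes). By every probe 19 were detected, and the median was 0.81. After Cd14 the brightest were Tlr2, the receptor for bacterial lipopeptides, at 4.12, Tlr13, which senses bacterial ribosomal RNA, at 3.78, the chaperone Unc93b1 at 3.71 and the adaptor Myd88 at 3.70. Tlr7, for single-stranded RNA, lay at 2.85 and Tlr4, for lipopolysaccharide, at 2.83. The undetected receptors were Tlr5, for flagellin, at -6.17, Tlr11 at -5.25 and Tlr12 at -7.16.

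Tlr4 lay at 2.83 here and between 2.71 and 2.98 on the other arrays. Tlr5 was undetected on all 4, between -6.93 and -5.99. Ly96, the lipopolysaccharide co-receptor MD-2, had a shared-word probe at 3.53 and a next probe at -1.80, so its level is uncertain.

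All 16 inflammasome genes were detected, with a median of 1.31. Naip5, which binds flagellin, was the brightest at 5.50 (next probe -3.53), by a probe that shares 16-base words with probes of 9 other gene names. After it stood Nlrp1a at 5.22 (next probe -1.21), Il18 at 3.91, Casp1 at 3.77, Casp4 at 3.41 and Gsdmd, the pore former of pyroptosis, at 3.31. At the dim end stood Pycard, the adaptor ASC, at -2.31, Mefv at -3.12 (next probe -5.38) and Naip1 at -4.02. Pycard was detected by both probes and on every array, between -2.34 and -2.23, and lay below every caspase of the list. The RAW264.7 line is known for lacking ASC protein.

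All 10 cytosolic nucleic acid sensors and adaptors were detected, with a median of 2.89. The nuclease Trex1 lay at 4.90, the RNA sensor RIG-I (Ddx58 on the array) at 4.80, STING (Tmem173) at 3.91 and the DNA sensor cGAS (Mb21d1) at 3.39. Interferon-stimulated genes were detected in full, 21 of 21 and each by every probe, with a median of 3.21. The master factor Irf7 lay at 7.61 here and at 7.24, 7.26 and 6.85 elsewhere. Ifi27l2a lay at 7.34 (next probe -0.03), Oas1a at 6.50, Isg15 at 5.84 and Bst2 at 5.65. Ifnb1, which encodes interferon beta, was detected at -2.55 and on every other array between -4.02 and -3.38, all below its level here.

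Receptors for uptake were detected in 27 of 31 (87.1%, against 54.0% of all gene names and 65.3% of protein-coding genes). By every probe 22 were detected, and the median was 1.11. After Fcer1g the brightest were Trem2, a lipid-sensing receptor, at 5.35, Clec4d, a fungal lectin receptor, at 5.26, Sirpa, which reads the CD47 signal, at 4.16 (next probe -4.86), and the high-affinity IgG receptor Fcgr1 at 3.79. The oxidised-lipid receptor Olr1, the lectins Cd209a and Cd209b, and Timd4 were undetected. Subunits and partners of the phagocyte oxidase were among the bright genes: Cyba lay at 7.03, Rac2 at 6.41, Ncf4 at 5.48, Rac1 at 5.38, Cybb at 3.48 and Ncf1 at 3.1. Of the other oxidases in the list of 14, Nox3, Duox1 and Duox2 were undetected.

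Chemokine genes ranged from bright to undetected. Of 34, 18 were detected (52.9%, against 54.0% of all gene names and 65.3% of protein-coding genes). The median was -4.09, against -4.18 for all gene names and -1.74 for protein-coding genes. Among the brightest were CC chemokines that attract monocytes and lymphocytes: Ccl9 at 6.36, Ccl3 at 5.0, Ccl4 at 4.83, Ccl5 at 3.82 and Ccl2 at 2.79, with the interferon-inducible Cxcl10 at 3.75 (next probe -3.13). Cxcl11 had a shared-word probe at 8.18, which shares 31 bases with that of Glrx2, and its other probe lay at 2.15. Ccl3 lay at 5.0 here and at 6.99, 4.49 and 6.52 with iron, with siTfe3/Tfeb and with both, so that both arrays with iron lay above both without. Undetected were Cxcl9, Ccl20, Cxcl3, Ccl17, Ccl19, Ccl22 and the neutrophil attractants Cxcl1 and Cxcl5.

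Of 20 chemokine receptors 11 were detected (55%, against 54.0% of all gene names and 65.3% of protein-coding genes). Only 1 was bright, the fractalkine receptor Cx3cr1, at 5.25 here and between 4.53 and 4.79 elsewhere. The next was Cxcr3 at -1.01. Ccr1, a receptor for Ccl3 and Ccl5 that macrophages often carry, was undetected. Ccr2 was dim at -3.27.

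Of 44 cytokine and growth factor genes 25 were detected (56.8%, against 54.0% of all gene names and 65.3% of protein-coding genes). The median was -4.07, against -4.18 for all gene names and -1.74 for protein-coding genes. Grn at 9.0 and Mif, the macrophage migration inhibitory factor, at 7.64 stood far above the third, Il18 at 3.91. Igf1 lay at 3.45, Tnfsf9 at 2.94, the interleukin-1 antagonist Il1rn at 2.93 and Tnf at 2.66. Tnf lay at 3.07, 0.51 and 1.79 on the other arrays. Several interleukin genes that activated macrophages can express were undetected: Il6 at -6.84, Il12a at -6.89, Il10 at -6.30, Il1a at -7.16 and Il23a at -7.04, with Il12b at -4.81 next to the limit, whereas Il1b at 0.10 and Il27 at -1.42 were detected.

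Cytokine receptors were detected in 28 of 33 (84.8%, against 54.0% of all gene names and 65.3% of protein-coding genes). By every probe 20 were detected, and the median was 0.46. After Csf1r stood Csf3r at 6.0, by a single shared-word probe, Csf2ra, the receptor chain for granulocyte-macrophage colony-stimulating factor, at 4.78, Tgfbr2 at 4.40 and the common gamma chain Il2rg at 3.99. Chains of the receptors for interleukin-6, tumour necrosis factor and the interferons were detected. Il1r1, Kit and Flt3 were undetected. Il1b was detected at 0.10 and its receptor Il1r1 was not, at -6.86.

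Antigen presentation was uneven between the classes. All 14 genes of the class I pathway were detected, with a median of 4.82. B2m lay at 7.98 (next probe 1.02), H2-K1 at 6.57, H2-D1 at 6.44 and the immunoproteasome subunit Psmb10 at 5.48. The probe of H2-L, at 6.07, shares 31 bases with that of H2-T23, and related class I genes cannot be told apart on it. Of 14 class II and costimulatory genes 12 were detected, with a median of -0.41.

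Within class II the invariant chain Cd74 lay at 5.68, H2-Eb1 at 1.40 and H2-Ab1 at 1.19. H2-Aa, which encodes the partner chain of H2-Ab1, was undetected at -6.38, and on every other array, between -7.27 and -7.09. Ciita, the master activator of class II genes, lay at -4.01 and was detected by 2 of its 4 probes. On the siTfe3/Tfeb iron array it was undetected. Cd80 lay at 1.52.

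Genes used to sort macrophages into classical and alternative activation were detected in 8 of 14 (57.1%), with a median of -2.56. The share was 54.0% over all gene names and 65.3% over protein-coding genes. Acod1, which makes itaconate, lay at 5.31 here and at 5.32, 3.71 and 5.0 elsewhere. The lectin Mgl2 lay at 5.52 (next probe -2.89), and its probe shares 43 bases with an unnamed transcript's probe at 5.08. Nos2, the inducible nitric oxide synthase, lay at 2.32 and Socs3 at 0.57. Arg1 at -6.91, Retnla at -6.70, Chil3 at -5.18 and Ido1 at -5.55 were undetected. Detected genes thus came from both sides of that division, and so did undetected ones.

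**Figure D4:**
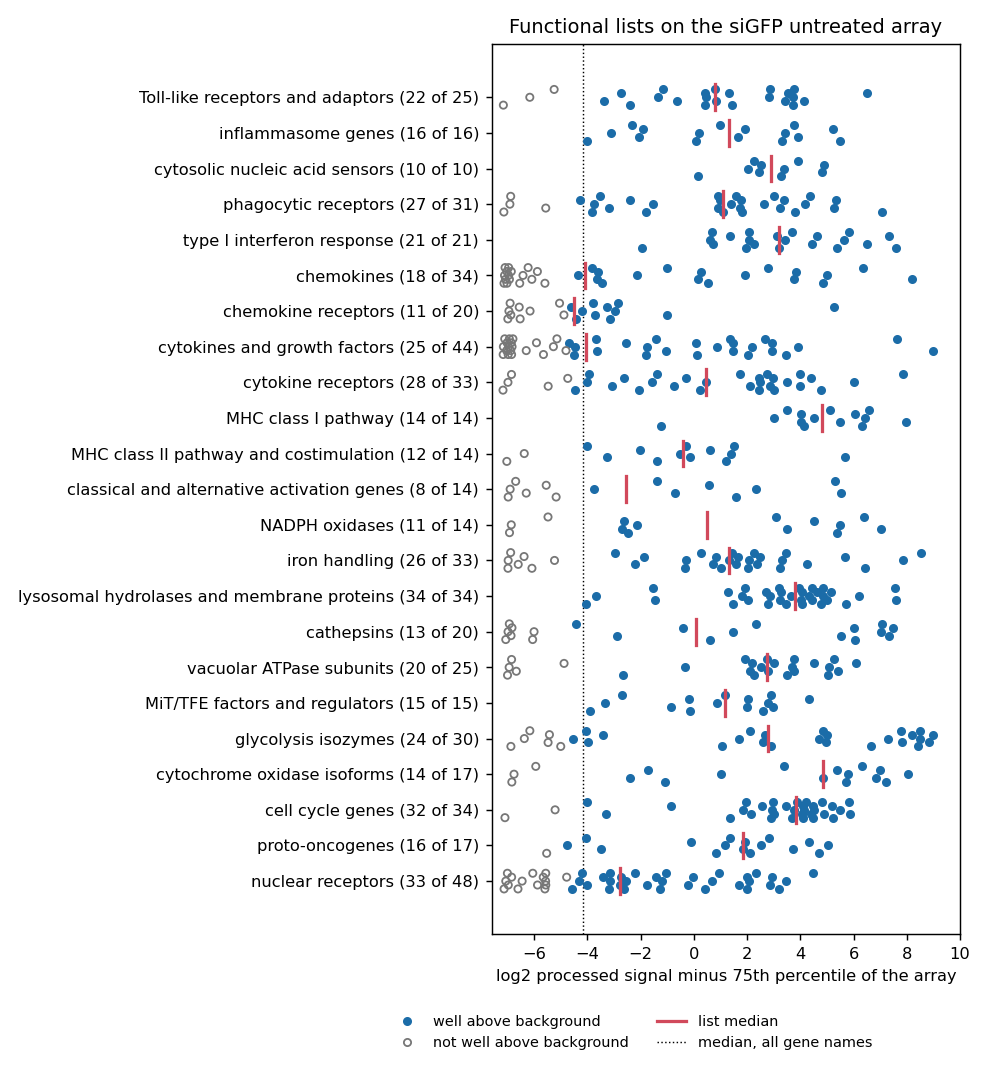
Levels of the genes of 23 functional lists (horizontal axis, log2 of the processed signal minus the array's 75th percentile), 1 row per list with its detected and measured members in brackets. Symbols are those of the plot of cell type lists. Class I, interferon and lysosomal genes lie mainly to the right, with every member detected, whereas chemokine genes spread over the whole range, 18 of 34 detected.

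Lysosomal genes were detected in full. All 34 hydrolases and membrane proteins were detected, 28 by every probe, with a median of 3.79. Lamp1, the main lysosomal membrane glycoprotein, lay at 7.61 and between 7.75 and 7.83 elsewhere, and Gla, the alpha-galactosidase lost in Fabry disease, at 7.54. Cd63 lay at 5.70, Gusb at 5.14 (next probe -1.56), Npc2 at 5.0 and Ppt1 at 4.85. Sgsh had a shared-word probe at 6.22 and a next probe at -4.08. Only Galc at -3.69 and the channel Mcoln3 at -4.07 were near the limit.

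Ctsb at 7.48, Ctsa at 7.33 (next probe -2.26), Ctsh at 7.07 and Ctss at 7.02 were bright. So were Ctsz at 6.06, Ctsd at 6.01 and Ctsl at 5.53 (next probe -5.99). Of 20 cathepsins 13 were detected (65%, against 54.0% of all gene names and 65.3% of protein-coding genes). The cathepsins of the rodent placenta, Ctsj, Ctsq, Ctsr, Ctsm, Cts3 and Cts6, and the neutrophil protease Ctsg were undetected. The proton pump that acidifies the lysosome was detected in 20 of 25 subunits (80%, above both shares), 17 by every probe, with a median of 2.73. Atp6v1f lay at 6.11, and the 5 undetected were Atp6v1b1, Atp6v1c2, Atp6v1g3, Atp6v0a4 and Atp6v1e2, forms of other tissues such as kidney and testis.

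The transcription factors targeted in the series were both detected in this control. Tfe3 lay at 4.33 here, 4.17 on the siGFP iron array, and 3.60 and 3.63 on the 2 arrays labelled siTfe3/Tfeb. Its next probe lay at -4.49. Tfeb lay at -0.86 here and at -0.98, -1.0 and -0.81 in the same order, all 4 of its probes detected. The related factors were Mitf at 2.97 and Tfec at -3.90. On these probes the arrays labelled siTfe3/Tfeb lay below both siGFP arrays for Tfe3 and overlapped with them for Tfeb. All 15 genes of the family and its regulators were detected by their brightest probe, 9 by every probe, with a median of 1.15, or -1.13 with the mean over probes. They include the GTPases Rragc at 2.90 and Rraga at 2.78 and the regulator Tsc2 at 2.61.

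Iron genes were detected in 26 of 33 (78.8%, against 54.0% of all gene names and 65.3% of protein-coding genes). By every probe 22 were detected, and the median was 1.34. The ferritin chains that store iron stood highest, Fth1 at 8.55 and Ftl1 at 7.86, followed by the iron chaperones Pcbp1 at 6.41 and Pcbp2 at 5.66 and by haem oxygenase Hmox1 at 4.24. The uptake receptor Tfrc lay at -0.31. The exporter ferroportin, Slc40a1, was dim at -2.95 by 1 of its 2 probes, and lay at 1.30, -2.74 and 1.8 on the other arrays. Hamp, the hormone hepcidin, the receptors Tfr2 and Cd163, the oxidase Heph, the scavenger Hpx, mitochondrial ferritin Ftmt and the importer Slc39a8 were undetected. The storage genes were thus among the brightest of the array, the exporter was dim but detected, and the hormone was undetected.

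Antioxidant genes were detected in 26 of 31 (83.9%, against 54.0% of all gene names and 65.3% of protein-coding genes). By every probe 24 were detected, and the median was 3.16. Prdx1 lay at 7.03, Mt1 at 6.67 (next probe -2.71), Sod1 at 6.57 (next probe -1.45), Prdx6 at 6.21 and Gpx1 at 6.07. Nqo1, a quinone reductase, was undetected at -7.10 here, at -4.99 on the siGFP iron array and at -7.23 on the siTfe3/Tfeb untreated array, and was detected at -4.37 on the siTfe3/Tfeb iron array. Complement was detected in 8 of 20 (40%, against 54.0% of all gene names and 65.3% of protein-coding genes). The stabiliser Cfp lay at 5.68 and C3 at 4.11, while C1qb was dim at -3.53 and C1qa and C1qc were undetected. Matrix metalloproteinases and their inhibitors were detected in 7 of 18 (38.9%, also below both shares), with Mmp9 the brightest at -0.26.

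Isozymes of glycolysis ranged from among the brightest genes to undetected ones. Pgk1 at 8.99, Aldoa at 8.84, Gapdh at 8.50, Pkm at 8.50, Ldha at 8.41, Eno1 at 8.18, Hk1 at 7.82 and Gpi1 at 7.77 were the brightest of 30. Detected were 24 (80%, against 54.0% of all gene names and 65.3% of protein-coding genes), 19 of them by every probe. Among those undetected were the liver forms Pklr and Slc2a2, the sperm forms Pgk2 and Gapdhs, and the heart form Ldhb, at -5.43 by the brighter of its 2 probes. Ldha lay between 8.34 and 8.44 and Ldhb between -7.13 and -5.43 over the 4 arrays. The Eno1 probe shares 53 bases with Eno1b. That of Hk1 shares 38 bases with another transcript's probe at 6.60, and that of Gapdh 30 bases with another such probe. Signal of such copies cannot be told apart from that of these genes.

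Of 17 cytochrome oxidase genes 14 were detected. Cox6a1 at 8.04, Cox8a at 7.21, Cox4i1 at 6.98 and Cox5a at 6.84 were bright, the tissue forms Cox4i2, Cox6b2 and Cox6a2 were detected at -1.08, -1.71 and -2.41, and Cox7b2, Cox8b and Cox8c were undetected. Among actins and tubulins 19 of 20 were detected. Actb lay at 8.96, Tuba1b at 8.51, Tuba1c at 7.03 and Actg1 at 6.93, and the platelet tubulin Tubb1 was undetected at -6.92. Among translation factors 17 of 18 were detected, with Tpt1 at 8.57 and Eif5a at 8.26, and the neuronal and muscle form Eef1a2 was undetected at -6.83.

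Large housekeeping complexes were almost complete. Of 82 cytosolic ribosomal proteins 80 were detected, with a median of 8.03, and the 2 undetected, Rps4l and Rpl39l, are paralogues of Rps4x and Rpl39. All 78 mitochondrial ribosomal proteins were detected, with a median of 3.76, and all 36 complex I subunits, with a median of 5.25. Of 39 proteasome subunits 38 were detected, and Psmb11, the thymus-specific one, was not, at -7.01.

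Cell cycle genes were nearly all detected. Of 34 cell cycle genes 32 were detected, with a median of 3.82. The replication helicase subunits Mcm6 at 5.86 and Mcm3 at 5.47, the kinase Cdk4 at 5.84, the sliding clamp Pcna at 5.22, the survivin gene Birc5 at 5.20 and Mki67, the Ki-67 antigen, at 4.90 were among the brightest. The germline cyclins Ccna1 and Ccnb3 were undetected. Among 15 inhibitors and p53 pathway genes, 12 of them detected, Cdkn1a lay at 4.09 and the p53 antagonist Mdm2 at 4.05, whereas Cdkn2a, Cdkn2b and Cdkn1c were undetected. Cdkn2a was undetected on all 4 arrays, between -7.04 and -5.11. Trp63 had a shared-word probe at 2.77 and a next probe at -4.77.

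Members of the Myc family differed. Mycn lay at 4.34 by its only probe, and between 3.90 and 4.45 elsewhere. Myc was at the limit, at -4.77 by 1 of 2 probes, and Mycl was undetected at -5.53. Myc was detected on both arrays with iron, at -3.64 and -4.44, and not on the siTfe3/Tfeb untreated array. The tyrosine kinase Lyn, at 5.05 (next probe -2.34), led the proto-oncogene list, of which 16 of 17 were detected.

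Nuclear receptors were detected in 33 of 48 (68.8%, against 54.0% of all gene names and 65.3% of protein-coding genes), or 14 when every probe was required. Their median was -2.78, or -4.55 with the mean over probes. Rxrb lay at 4.46 (next probe 0.18), Esrra at 3.44, Nr1h2, the ubiquitous LXR, at 3.20, Rarb at 2.92, Nr2f6 at 2.87 and the glucocorticoid receptor Nr3c1 at 2.32. Nr2e3 of the retina, Nr0b1, Nr2f2 and Nr1i2 were the dimmest and undetected. Lipid genes were detected in 21 of 23. The fatty acid carrier Fabp5 lay at 6.24, Scd2 at 5.69, Fasn at 5.38, lipoprotein lipase Lpl at 5.18 and the cholesterol exporter Abcg1 at 4.44. The Fabp5 probe shares 50 bases with another transcript's probe at 5.39. Apoe, a secreted apolipoprotein of many macrophages, lay at -0.95.

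Among small RNA factors 10 of 12 were detected, with Tarbp2 at 3.19, Drosha at 3.03 and Ago2 at 2.47, and the germline Piwil1 and Piwil4 were undetected. Of 13 listed long non-coding RNAs on the array 11 were detected, 6 by every probe, against 29.2% of all 3954 named through RefSeq. Gas5 lay at 6.32 and Snhg6 at 4.21, and the imprinted H19 was undetected. The list median was 0.63, or -1.20 with the mean over probes. The Y-linked Eif2s3y, Kdm5d, Ddx3y and Uty were detected and Xist, which coats the inactive X, was undetected at -7.02. Of these 4 Y-linked genes only 1 was detected by every probe, and 3 were not. Eif2s3y lay at 1.91 here and between 1.77 and 1.94 elsewhere. The 4 cultures thus gave the same pattern of sex-linked transcripts.

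Families of specialised tissues gave a view of the floor. Of 1083 olfactory receptors 145 were detected (13.4%), with a median of -6.89, and 12 lay above 0. Olfr1198, at 3.88 by 1 of 2 probes, was the brightest and stayed between 3.65 and 3.92 elsewhere. Vomeronasal receptors were detected in 25 of 260, taste receptors in 4 of 38, beta-defensins in 4 of 42, and prolactins in 4 of 24. Keratin-associated proteins were detected more often, in 22 of 54, with Krtap4-6 at 5.93. Of 39 genes of the homeobox clusters 13 were detected (33.3%), and Hoxb7, at 2.80, led them. The share was 54.0% over all gene names and 65.3% over protein-coding genes.

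Presence calls were largely shared with the rest of the series, and few genes set this array apart from every other array at once. A gene that differed only with iron, or only with siTfe3/Tfeb, falls outside the 2-fold counts below. Of its detected genes 18453 (92.7%) were detected on all 4 arrays, 325 on this array alone, and 158 genes on the other 3 but not here. The 325 were dim, with a median of -4.47 and none above -2.54. In measured signal, 59 genes lay 2-fold or more above each of the other 3 arrays, 0.276% of 21361 detected on any array, and 25 lay 2-fold or more below each, 0.117%. Only 8 of the 59 and 10 of the 25 were detected on all 4 arrays. The rest have only bounds. For these the dim array's value was replaced by its faintest signal called well above background, or by the gene's own where that was higher, and the bounds reached 2-fold in 11 of 51 and 4 of 15. In all, 19 higher and 14 lower genes thus had a fold or a bound of at least 2. With normexp background correction, which compresses dim signals, the counts were 7 and 4.

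The differences that rest on measured signal on all 4 arrays involve few genes. Fpr2, a formyl peptide receptor of phagocytes, lay at 0.41 here and at -2.12, -1.84 and -2.60 on the siGFP iron, siTfe3/Tfeb untreated and siTfe3/Tfeb iron arrays, 4.75-fold or more higher than on each. Mmp9, the gelatinase of the osteoclast list, lay at -0.26 here and at -1.78, -4.00 and -3.74. The interferon-induced Mx1 lay at 1.37 here and at 0.25, -0.16 and -0.50, and the interferon-induced GTPase Tgtp2 at 2.17 against 1.01, 0.79 and 0.38. The kinase Dmpk lay at 1.35 against -0.02, -0.17 and -0.65. These 5 also passed with normexp. Id3, a repressor of helix-loop-helix factors, lay at 0.92 against -0.13, -0.08 and -1.05, right at the 2-fold limit.

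The lower set was led, among genes detected on all 4 arrays, by glutathione transferases, which detoxify electrophiles. Gstm1 lay at -0.54 here and at 1.54, 0.78 and 2.60 on the siGFP iron, siTfe3/Tfeb untreated and siTfe3/Tfeb iron arrays, and Gstm3 at -0.31 against 1.66, 0.96 and 2.68. Pmp22, a membrane protein, lay at 0.76 against 2.91, 1.87 and 3.18. These 3 and C77080 also passed with normexp. Among the bounds, Gm32359, undetected elsewhere, was at least 4.81-fold higher here, and Tmem178, undetected here, was at least 2.76-fold lower.

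**Figure D5:**
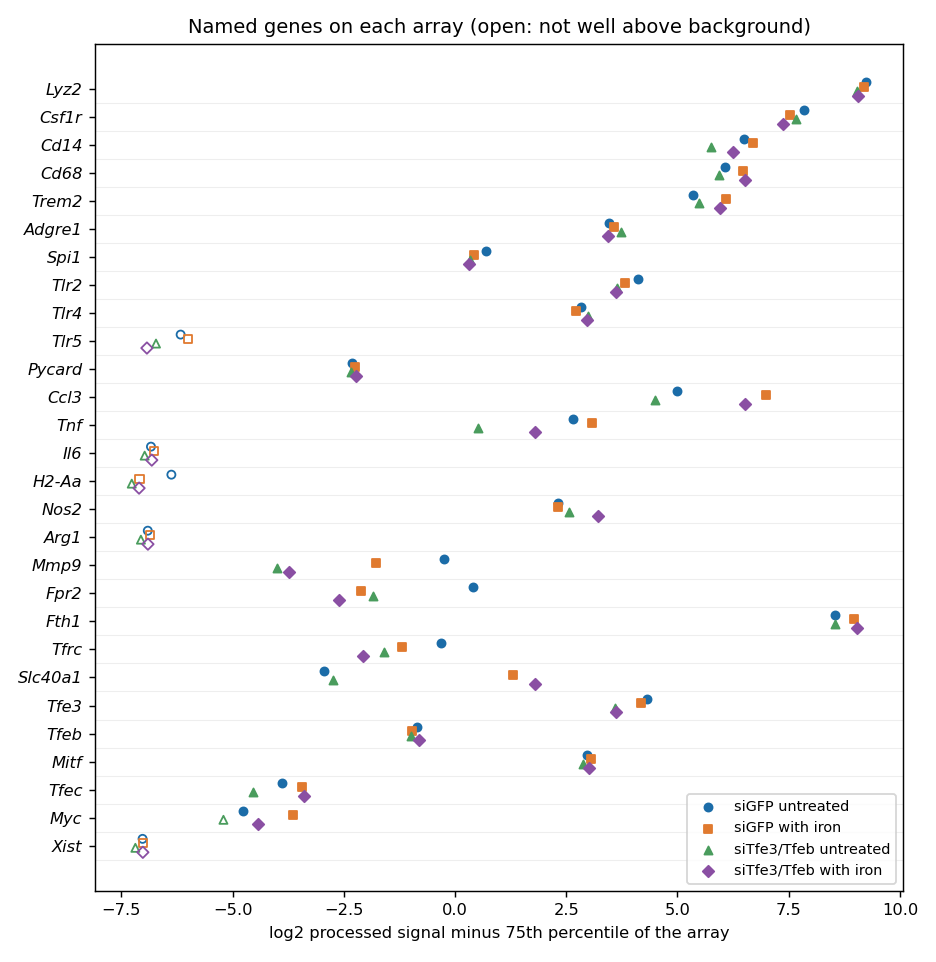
Levels of 28 named genes on each of the 4 arrays (horizontal axis, log2 of the processed signal minus each array's 75th percentile), with 1 array per group and open symbols where a gene was not well above background. Most genes overlap closely, whereas Fpr2 and Mmp9 are highest on the siGFP untreated array and Slc40a1 lies higher on both arrays with iron.

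Promoters were compared for 13545 protein-coding genes with a single RefSeq promoter (GRCm38.p6), taken as 250 bases before to 50 after the start, with motifs sought on both strands. Detected genes had more CpG dinucleotides, a median of 20 against 4 for undetected genes. The GC box GGGCGG stood in 60.4% of detected and 26.9% of undetected genes (48.2% of the 13545). The TATA box TATAAA stood in 9.02% and 22.2% (13.8% of the 13545). CCAAT was held by 39.7% and 38.9% (39.4% of the 13545). Over all 32544 promoters, a wider set, the shares of these motifs were 35.9%, 13.6% and 37.4%. Of 905 olfactory receptors, detected or not, 40.9% held TATAAA and 0.994% GGGCGG. The PU.1-type word GAGGAAGT stood in 3.22% of detected and 2.40% of undetected genes, and in 1 of 20 macrophage identity genes. It stood in 2.92% of the 13545 and in 3.11% of all 32544 promoters.

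GTCACGTG is the core of the element that Tfeb and its relatives bind in lysosomal gene promoters. It stood in 3.90% of detected and 1.37% of undetected genes (2.98% of the 13545, and 2.26% of all 32544 promoters). In the brightest of 4 equal groups of detected genes its share was 5.68%. The word contains CpG, which itself differed between these sets. With every promoter of a gene counted, 7 of 28 lysosomal genes held it, 2 of 16 cathepsins, 2 of 19 proton pump subunits, none of 22 iron genes and none of 24 macrophage identity genes, against 3.39% of 16292 protein-coding genes. The windows below are 100 bases upstream of the start on the strand of the gene, from RefSeq (GRCm38.p6), with GTCACGTG or its reverse complement CACGTGAC in capitals; the genes' levels were 7.61, 2.77, 4.33 and 6.01. A match describes the sequence and is not a measured binding site.
Lamp1, chr8:13159061-13159160, plus strand: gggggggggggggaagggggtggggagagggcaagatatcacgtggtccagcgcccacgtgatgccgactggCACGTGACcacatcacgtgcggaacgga
Mcoln1, chr8:3500400-3500499, plus strand: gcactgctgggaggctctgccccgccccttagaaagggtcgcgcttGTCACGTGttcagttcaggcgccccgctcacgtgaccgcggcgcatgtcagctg
Naglu, chr11:101069973-101070072, plus strand: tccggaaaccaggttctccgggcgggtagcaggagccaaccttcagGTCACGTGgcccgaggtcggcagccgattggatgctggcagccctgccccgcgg
Ctsd, chr7:142387872-142387971, minus strand: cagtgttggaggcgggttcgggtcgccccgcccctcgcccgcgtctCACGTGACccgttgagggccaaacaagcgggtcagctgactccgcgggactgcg

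Mcoln1, a lysosomal calcium channel whose next probe lay at -4.96, also holds the reverse complement in its window, in small letters. Ctsd, the aspartic protease cathepsin D, has a further match farther upstream. All 7 lysosomal genes with the word (Gla, Glb1, Naglu, Arsa, Sgsh, Lamp1 and Mcoln1) were detected, as were the 27 list members in which it was not found or no promoter was given.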

How the data were processed

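Total RNA of 4 RAW264 cultures was labelled with 1 dye and hybridised to Agilent 8x60K mouse arrays, 1 per group. The authors read them in Feature Extraction 12.0.3.1, as the submitters' processing notes and file headers state. Each deposited file gives a processed intensity per spot, which is background-subtracted and detrended per the file headers, and flags for outliers, saturation and signal over background. The series matrix deposited by the authors, used only as an alternative, holds log2 values centred on each probe's median. Set against the scanner values, differences between its columns had a slope of 1, which settles scale and direction; its column for this array had a median of -0.0042 and those of the others 0.022, -0.087 and 0.0013.

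Control spots and 66 outlier spots were left out, no spot was saturated, and spots of a probe were averaged. Log2 intensity minus the array's 75th percentile gave the level. A probe was detected when at least 50% of its spots were flagged well above background. Genes follow the array's names (24765 of 36870 matched RefSeq). Signal over background limits precision, and the number of arrays, 1 per group, allows no error between cultures. Alternatives were normexp (limma 3.58.1 in R 4.3.3, offset 50), quantile and median scaling, other detection rules, the mean over probes, RefSeq names, the series matrix and, chosen after seeing the data, leaving out shared-word probes or choosing the brightest probe by its mean over 4 arrays.

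The members and lists were chosen with earlier results of these data known. Named genes are the MiT/TFE factors, the 25 brightest with a symbol, the brightest in each of 10 equal parts of the ranking, up to 8 brightest and 4 dimmest or undetected members of each list, up to 5 brightest of each family and the 10 largest differences in each direction. Other list members given with a value, among them Adgre1, Spi1, Itgam, Tlr4, Tnf, Il6, Tfrc, Slc40a1, H2-Aa, Apoe and genes plotted over the arrays, and the differences detected on all 4 arrays were picked after their values were seen. On simulated data, the steps were tested for the comparison with the other 3 arrays over 36870 genes: of 50 genes raised 2.5-fold 90.0% were called, all 50 at 4-fold, 1 of 50 at 1.5-fold, and of 21267 unchanged genes 1 was called higher and 2 lower. Variation between cultures was not simulated.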

Additional observations from a re-analysis of the deposited data

How the results depend on the processing

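The count of detected genes, 19907, ranged from 15925 (every probe of a gene required) to 27503 (a looser flag of significant signal); it was 22493 against the 99th percentile of negative controls, 14738 with names taken through RefSeq and 19638 without shared-word probes. Of the 100 brightest genes 96 remained with normexp, 80 without shared-word probes and 60 with the mean over all probes. For genes at least 2-fold higher than on each other array, 59, normexp gave 7 and the mean over all probes 35, and the other settings gave 54 to 60. For the 25 lower genes normexp gave 4, and the others 21 to 29. Normexp with its offset compresses dim signals, and 51 of the 59 were undetected on at least 1 other array. Id3 and Mchr1, detected on all 4 arrays, also dropped out with normexp, and Gm32359, undetected on the other arrays, stayed. Why these counts moved was not tested. Over all 56 lists, 684 members were detected, 530 when every probe was required and 810 with the looser flag. These settings moved the detected count of 17 and 13 lists by over 1.5 times. Leaving out shared-word probes moved none so far. The 82 genes shared by the 100 brightest of every array were 86 with normexp, and the share of detected genes with GGGCGG, 60.4%, was 61.0% with the mean over probes and detection by every probe together. No paired analysis was possible because each group holds 1 array, and leaving out a replicate was not possible for the same reason. Below a level of -2 the SD between spots was 0.28, so dim levels are rough.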
